A study of Mus musculus with 4 samples.

Results

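Rod phototransduction was followed through 9 genes, listed by symbol, out of 32285 genes measured by single-cell RNA sequencing in mouse retina. All 9 were found in every library. They were Gnat1 and Gngt1 (the alpha and gamma subunits of the rod G protein transducin), Pde6a, Pde6b and Pde6g (the 2 catalytic subunits and an inhibitory subunit of the rod cGMP phosphodiesterase), Cnga1 and Cngb1 (subunits of the rod cGMP-gated channel), Sag (rod arrestin) and Rcvrn (recoverin, a calcium sensor). Retinas came from 2 wildtype (WT) mice and 2 mice labelled NLGF, 1 female and 1 male of each, all at postnatal day 30. NLGF is a name used in the field for a knock-in line of the amyloid precursor protein gene, and the labels do not spell it out. Each library was 1 retina of 1 animal, so the spread between libraries holds animal and preparation differences together.

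In the dark, cGMP holds the channel of the rod outer segment open. Light activates the visual pigment, which switches on transducin, and transducin relieves the phosphodiesterase of its inhibitory subunit. The enzyme then lowers cGMP and the channel closes. Arrestin ends the signal of the activated pigment, and recoverin ties the pigment's kinase to calcium. Cones run the same cascade with their own versions of most of these proteins.

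The 4 libraries held 35191 barcodes and 85860041 unique molecular identifiers (UMIs, 1 per captured RNA molecule), between 19128388 and 23473093 per library. After filtering, 31331 cells formed 19 clusters, and 25022 cells in 4 clusters were rods. Rods made up between 79.1% and 81.0% of the cells of a library. Their 6 marker genes, none of them a member of the set, summed to between 6159 and 6528 UMIs per 1000000 (CPM) in rods, against 143 to 191 in amacrine cells. The median WT rod held 809 UMIs (female) or 957 (male), and the median NLGF rod 888 (female) or 916 (male). The median mitochondrial share of rod UMIs was 3.01% and 4.41% in WT and 2.57% and 2.78% in NLGF, females first, so the WT male stood apart. Libraries shared between 17 and 34 barcodes, at most 0.375% of the smaller library. After the data were seen, 3 clusters with mixed or rod-level markers were left out of every class. Their markers named them ganglion cells (440 cells) and horizontal cells (762 and 160 cells). They made up between 3.89% and 4.97% of the cells of a library.

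Upstream sequence from RefSeq (GRCm38.p6) matched 5 of the 9 genes by symbol: Gngt1, Pde6b, Cnga1, Cngb1 and Sag. Rod promoters are known targets of CRX, a homeodomain factor of photoreceptors, and of NRL, the leucine-zipper factor that sets rod identity. The motifs searched on both strands were TAATCC for CRX and TGCTGA, an NRL half-site, and the window was the 250 bases before the start site. TAATCC was in 4 of the 5 windows, against 6.25% of 32851 RefSeq windows of the same length. TGCTGA was in 2 of the 5, against 16.1%. Of the 4 windows with TAATCC, 2 lay largely in GENCODE exons of their own gene, that of Gngt1 with 216 of its 250 bases and that of Cnga1 with all 250. The windows of Sag (chr1:87803430-87803679, plus strand), Cngb1 (chr8:95306586-95306835, minus strand) and Pde6b (chr5:108388123-108388372, plus strand) are shown because none of their bases lay in GENCODE exons of the gene. They are written 5′ to 3′ in the direction of the gene, with motif matches on either strand in capitals.
Sag: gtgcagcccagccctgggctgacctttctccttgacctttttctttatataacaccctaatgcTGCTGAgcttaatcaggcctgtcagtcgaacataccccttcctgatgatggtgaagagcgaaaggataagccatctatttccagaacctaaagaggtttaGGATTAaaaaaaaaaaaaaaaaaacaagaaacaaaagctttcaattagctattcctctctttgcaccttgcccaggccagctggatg
Cngb1: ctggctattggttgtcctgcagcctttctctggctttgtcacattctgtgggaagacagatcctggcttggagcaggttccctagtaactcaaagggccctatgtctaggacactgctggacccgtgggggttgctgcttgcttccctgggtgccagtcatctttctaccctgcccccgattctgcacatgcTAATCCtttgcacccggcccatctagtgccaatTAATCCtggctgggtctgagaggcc
Pde6b: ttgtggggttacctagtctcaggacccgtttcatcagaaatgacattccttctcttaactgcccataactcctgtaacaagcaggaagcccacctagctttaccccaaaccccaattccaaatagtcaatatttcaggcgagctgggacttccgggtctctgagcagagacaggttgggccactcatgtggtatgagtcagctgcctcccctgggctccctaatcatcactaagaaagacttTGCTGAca
Sag held 1 CRX match starting 87 bases before the start site and 1 NRL half-site at 187 bases. Cngb1 held CRX matches at 58 and 25 bases, and Pde6b held an NRL half-site at 8 bases. A match describes letters in the window, and binding was not measured here.

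The members were abundant in rods and summed to between 3.81% and 4.52% of all rod UMIs. The first question was whether rods of NLGF retinas differed from WT rods, tested with edgeR's quasi-likelihood test on UMIs summed per library. None of the 9 genes passed the test (Benjamini-Hochberg adjusted p between 0.566 and 0.867), where 0.0404% of 12387 genes did, 4 higher and 1 lower, and 1040 genes had an unadjusted p below 0.05. All 9 log2 differences were below 0, between -0.34 and -0.08, with a median of -0.21 against 0.01 over all genes. DESeq2 also called 0 of the 9.

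The transducin genes read as follows after scaling with the trimmed mean of M values (TMM). Gnat1 was at 6877 CPM (female) and 7625 (male) in WT, and at 6064 (female) and 6541 (male) in NLGF. Gngt1 was at 8589 and 11495 CPM in WT and at 8068 and 8904 in NLGF, females first here and below. Gnat1 did not overlap between genotypes, and Gngt1 did, with the WT male highest in both. Values of the genotypes did not overlap, in either direction, for 39.6% of the 12387 genes tested, and for 18.7% the NLGF values were the lower ones. Lack of overlap in 2 against 2 libraries is therefore common, and it is given for the members as a description.
Their log2 differences, NLGF minus WT, were -0.21 ± 0.10 (SE, n = 2 and 2, edgeR adjusted p = 0.622) and -0.25 ± 0.13 (edgeR adjusted p = 0.651).

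Of the phosphodiesterase, the inhibitory subunit had the largest difference. Pde6g was at 5196 and 6425 CPM in the WT female and male, and at 4472 and 4717 in the NLGF female and male. The log2 difference was -0.34 ± 0.12 (SE, edgeR adjusted p = 0.566), and the genotypes did not overlap. The catalytic subunits lay closer together, again without overlap. Pde6a was at 2758 and 2610 CPM in WT and at 2530 and 2579 in NLGF, a log2 difference of -0.08 ± 0.10. Pde6b was at 1879 and 2017 CPM in WT and at 1777 and 1793 in NLGF, a log2 difference of -0.13 ± 0.10.

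The channel subunits had small differences. Cnga1 was at 2587 and 2494 CPM in WT and at 2458 and 2360 in NLGF, and Cngb1 at 1311 and 1432 against 1210 and 1233. Neither overlapped between genotypes, by a small margin for Cnga1. Of the shut-off genes, Sag was at 7881 and 8987 CPM in WT and at 7110 and 6897 in NLGF, with a log2 difference of -0.27 ± 0.10 (SE, edgeR adjusted p = 0.566). Rcvrn was at 3800 and 4553 CPM in WT and at 3325 and 3453 in NLGF, with a log2 difference of -0.31 ± 0.11 (SE, edgeR adjusted p = 0.566). For these genes the WT male was again the highest library. Of 16 other genes of the cascade, 0 passed the test.

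**Figure D1:**
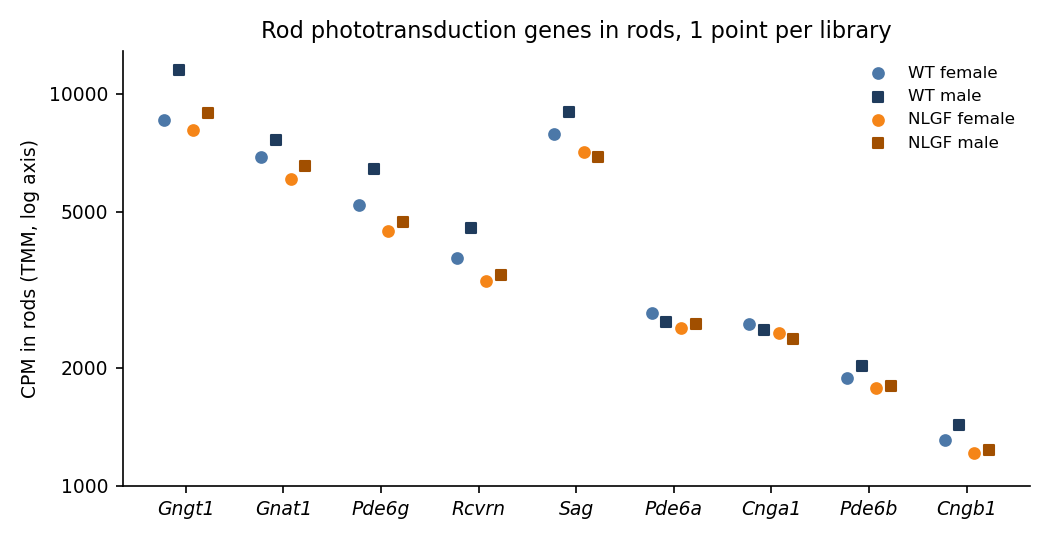
TMM-scaled CPM in rods (log axis) for the 9 genes, 1 point per library, with circles for females and squares for males. The WT male is highest for Gngt1, Gnat1, Pde6g, Rcvrn, Sag, Pde6b and Cngb1, and no gene passed the test between genotypes.

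The call of 0 genes changed when either WT retina was left out. Such a fit has no WT replicate, so its spread comes from the NLGF pair alone. Without the WT female, 7 genes were called lower in NLGF (all but Pde6a and Cnga1), and without the WT male 2 were (Pde6g and Sag). Calls over all genes rose as well, to 8.27% of 12893 genes without the WT female (366 higher and 700 lower) and 1.06% of 12755 without the WT male. The part of the WT male's higher mitochondrial share and depth in these values was not tested. In rods under 2% mitochondrial UMIs none of the 9 genes was called, where 0.00951% of 10510 genes were. The differences of Gnat1, Gngt1, Pde6g, Cnga1 and Rcvrn were above 0 there, from 0.01 to 0.20. In rods over 5%, Sag alone of the 9 was called, with a log2 difference of -0.35 (edgeR adjusted p = 0.0342). There 0.173% of 10382 genes were called, 7 higher and 11 lower. Without TMM, the sign of the NLGF difference differed between females and males for 2 genes, and with TMM for none. A change of the genotype difference with mitochondrial share was called for 0 of the 9 genes (interaction test, edgeR, 0.0472% of 10592 genes called and 806 with an unadjusted p below 0.05). With depth it was called for 0 of the 9 as well (0.0362% of 11055 genes called, 634 with an unadjusted p below 0.05). DESeq2 called 0 members in both. Without the WT female, 3 and 6 members were called in these interactions, where 4.52% of 10979 and 6.23% of 11509 genes were.

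Within rods the cascade genes rose with depth, and the 9 genes fell into a group with large and a group with small rises. Rods in the deepest and the shallowest quartile of UMIs were compared within each library, with library as a block. All 9 genes were higher in the deepest quartile, where 33.1% of 10120 genes were called higher and 34.6% lower. Total UMIs include the members' own, so depth and level share those counts. Gngt1 rose from 2805 ± 461 to 17879 ± 3311 CPM (SD, n = 4), a log2 difference of 2.48 ± 0.16 (SE). Gnat1 rose from 3128 ± 172 to 11743 ± 1506 CPM, and Sag from 5847 ± 547 to 9806 ± 1599. In this comparison and the mitochondrial one, CPM were scaled with TMM over all genes. The log2 differences come from fits scaled over the genes left by a filter on low counts. The CPM of Gngt1, Gnat1 and Sag give larger rises than these fits. The log2 differences were 2.52 for Pde6g, 2.25 for Rcvrn and 1.71 for Gnat1. They were 1.10 for Cnga1, 0.74 for Cngb1, 0.67 for Pde6a, 0.55 for Sag and 0.32 for Pde6b.
Of the 16 other cascade genes, 11 rose and 0 fell, with a median of 0.84 against -0.04 over all genes. Slc24a1, the rod sodium-calcium exchanger and also a rod marker here, rose by 1.73, Pdc (phosducin) by 1.73, Unc119 by 1.72 and Guca1a, an activator of guanylate cyclase, by 1.62.

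The scaling set the size of the smaller rises. Without TMM the median of all genes moved from -0.04 to -0.55, and 1876 genes were higher and 5516 lower, against 3348 and 3497 with it. Then 6 of the 9 genes were called higher, Pde6a, Pde6b and Sag were not, and Pde6b had a log2 difference of -0.19. The call of Pde6b was also lost without the WT female, the NLGF female or the NLGF male. It was lost too with rods thinned to 500 UMIs (log2 difference 0.18, edgeR adjusted p = 0.222), in the highest mitochondrial quartile alone (0.21, edgeR adjusted p = 0.0646) and in the lowest alone.

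The same split appeared by mitochondrial share. Mitochondrially encoded genes were taken out of the counts before the highest and lowest quartiles were compared. All 9 genes were higher in the highest quartile, where 31.1% of 9956 genes were higher and 31.2% lower. Gngt1 rose from 3876 ± 565 to 18721 ± 2122 CPM (SD, n = 4), a log2 difference of 2.23 ± 0.10 (SE), and Gnat1 from 3712 ± 236 to 12125 ± 689. Sag went from 7402 ± 370 to 9152 ± 1332 CPM, a log2 difference of 0.25 ± 0.09 (edgeR adjusted p = 0.0138). The log2 differences were 2.13 for Pde6g, 1.74 for Rcvrn and 1.66 for Gnat1, then 0.95 for Cngb1, 0.89 for Cnga1, 0.71 for Pde6a and 0.38 for Pde6b.
Of the 16 other cascade genes, 13 rose and 0 fell. Slc24a1 rose by 1.77, Gnb1, the beta subunit of rod transducin, by 1.36, Unc119 by 1.32 and Pdc by 1.01. Without TMM the median of all genes moved from -0.03 to -0.47, with 1684 genes higher and 5555 lower against 3093 and 3102. Sag was then called lower, at -0.19 (edgeR adjusted p = 0.0175), and Pde6b was at -0.05. The call of Sag was lost without the WT female or the NLGF female.

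Depth and mitochondrial share overlapped in these rods, so each was read within levels of the other. In the deepest quartile of rods, all 9 genes were higher at high mitochondrial share, where 60.2% of 8542 genes were called, 2576 higher and 2568 lower. In the middle depth quartiles none of the 9 was called, nor was any of the 8283 genes tested (1100 had an unadjusted p below 0.05), and in the shallowest quartile none of the 9 was called, where 1.25% of 3198 genes were. Gngt1 shows the pattern without mitochondrial genes in the total. In the shallowest quartile it was at 3618 ± 539 CPM (SD, n = 4) in the lowest mitochondrial quartile and at 3931 ± 805 in the highest. In the quartile next to the shallowest Gngt1 went from 3318 ± 486 to 3725 ± 451 CPM. In the quartile next to the deepest it went from 4465 ± 424 to 7595 ± 5756 CPM. There the libraries ran from 4166 to 16193 CPM in the highest mitochondrial quartile. In the deepest quartile it went from 5974 ± 487 to 18772 ± 834 CPM. Sag went the other way in the deepest quartile, from 9558 ± 651 to 7638 ± 983 CPM in the same counts without TMM. The fit with TMM gave Sag a log2 difference of 0.16. Pde6b also fell there without TMM, from 2075 ± 105 to 1932 ± 89.3 CPM. In the lowest mitochondrial quartile, deeper rods were higher for 6 genes and lower for Cngb1 (-0.18, edgeR adjusted p = 0.0308), and neither Pde6a nor Pde6b was called. There 30.2% of 5419 genes were called, 878 higher and 759 lower.

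The genes with large rises were the short ones. Gngt1 (ENSMUSG00000029663, GRCm38 chr6:3993792-3997436), Gnat1 (chr9:107674474-107679712), Pde6g (chr11:120447605-120453500) and Rcvrn (chr11:67695326-67703333) spanned 3.65, 5.24, 5.90 and 8.01 kb. Cnga1 (chr5:72603696-72644275), Sag (chr1:87803680-87845158), Pde6b (chr5:108388391-108432397) and Cngb1 (chr8:95239045-95306585) spanned 40.6, 41.5, 44.0 and 67.5 kb, and Pde6a 69.6 kb. All are protein-coding. Across the 9 genes, log10 span and the log2 difference had a Pearson r of -0.90 by mitochondrial share and -0.92 by depth, with Spearman's rho of -0.75 and -0.78. These are descriptions across genes measured in the same libraries. Over all genes tested the median log2 difference by depth was 0.37 under 10 kb, 0.05 from 10 to 40 kb and -0.32 at 40 kb or more. By mitochondrial share the medians were 0.17, 0.01 and -0.14.

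**Figure D2:**
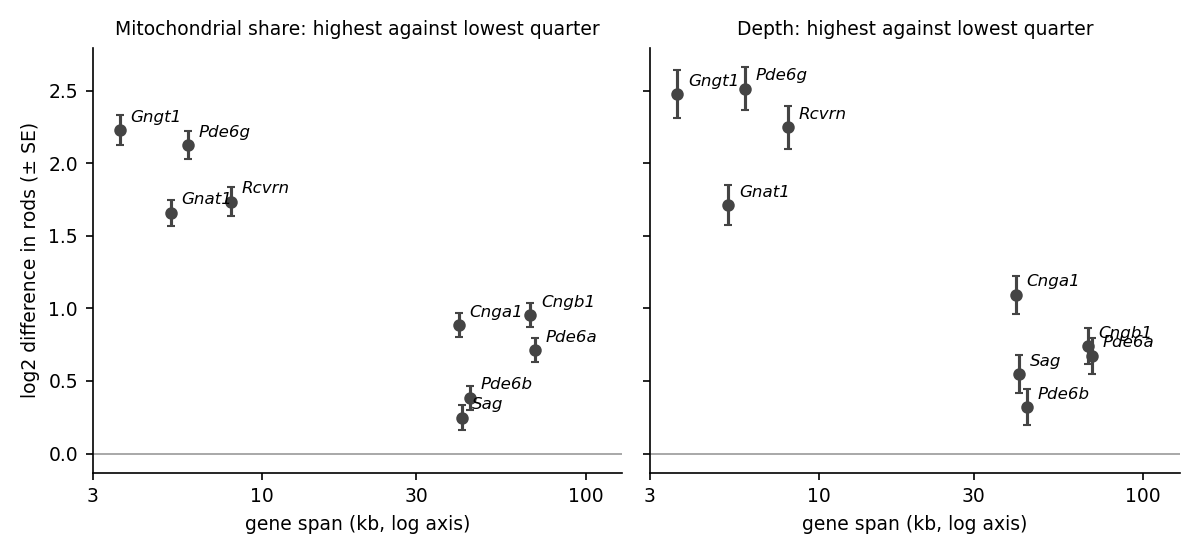
Log2 difference in rods (± SE, edgeR) against gene span (kb, log axis), for the highest against the lowest quartile of mitochondrial share (left) and of depth (right), 1 point per gene. The 4 genes under 10 kb lie at 1.66 or above, and the 5 genes over 40 kb lie at 1.10 or below.

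In the shallowest rods, the mean UMIs per droplet of 4 members overlapped those of cells that should lack them, and for 2 of the 4 this rested on a few cells. Amacrine cells served as that reference, since free RNA in a droplet assay gives UMIs in cells that do not express a gene. In rods with fewer than 750 UMIs, Gnat1 was at 2.47 to 2.64 UMIs per barcode over the 4 libraries, and in amacrine cells at 1.96 to 2.80. Gngt1 was at 1.80 to 2.67 in these rods and 1.92 to 3.13 in amacrine cells. Pde6g (1.14 to 1.32 against 1.18 to 2.14) and Rcvrn (0.918 to 1.10 against 0.969 to 1.38) overlapped too. The amacrine means were carried by a few cells: in each library 5 cells held between 26.9% and 59.2% of the UMIs of Gnat1 and Gngt1, and the median amacrine cell held 1 or 2. Without the 5% of cells with most UMIs of the gene, a limit added after seeing the data and applied to both classes, Gnat1 was at 2.25 to 2.39 in the shallow rods and 1.36 to 1.84 in amacrine cells. Rcvrn, at 0.779 to 0.950 against 0.603 to 0.671, no longer overlapped either. Gngt1 (1.59 to 2.38 against 1.20 to 1.76) and Pde6g (0.993 to 1.14 against 0.711 to 1.09) still did. The genes with long spans did not overlap in the full means. Sag was at 4.45 to 5.41 UMIs in the shallow rods and 1.74 to 2.43 in amacrine cells. Pde6a was at 1.55 to 1.63 against 0.556 to 0.989, and Cngb1 at 0.749 to 0.794 against 0.227 to 0.471. Pde6b and Cnga1 also lay above their amacrine range. In rods with 2500 UMIs or more, Gnat1 reached 31.3 to 35.0 UMIs and Gngt1 47.0 to 50.5. The part of free RNA in the depth comparison was not tested.

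**Figure D3:**
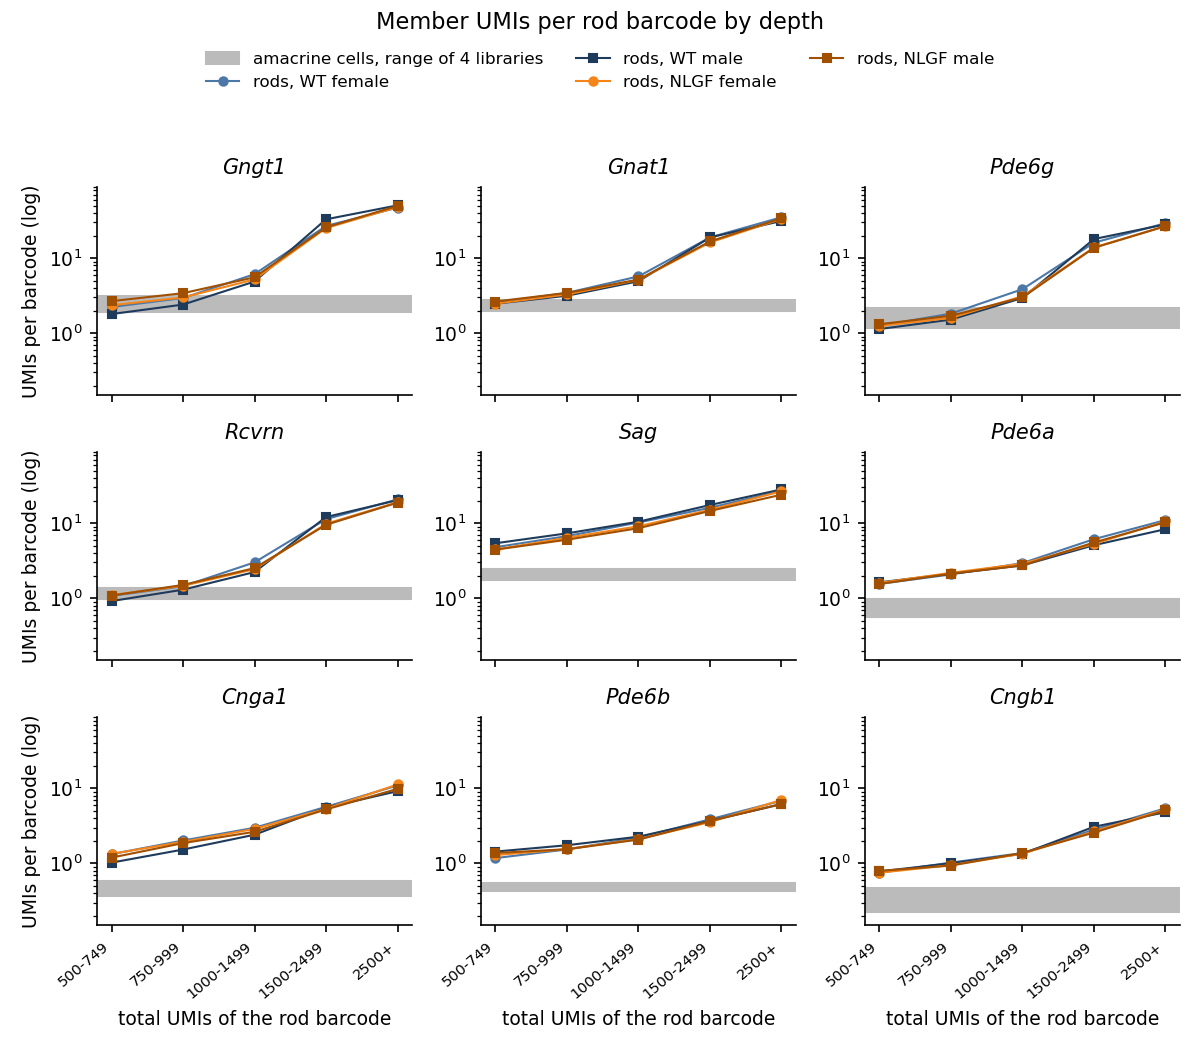
Mean UMIs per rod barcode (log axis) in 5 bins of total UMIs, 1 line per library, with the range of the 4 libraries in amacrine cells as a grey band. In the shallowest bin Gngt1, Gnat1, Pde6g and Rcvrn lie on the band, and Sag, Pde6a, Cnga1, Pde6b and Cngb1 lie above it. Without the 5% of cells with most UMIs in each class, the overlap remains for Gngt1 and Pde6g and is lost for Gnat1 and Rcvrn.

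In most classes outside the photoreceptors the 9 genes were present at a similar median number of molecules per droplet, and cone bipolar cells held more. Their summed UMIs had a median of 6 to 8 per amacrine cell, 7 to 9 per rod bipolar cell, 7 to 8 in both clusters of Müller glia, 6 to 10 per endothelial cell and 5.5 to 8.5 per microglial cell. The median was 12 to 14 per cone bipolar cell and 23 to 26 per rod. Library means spread more, at 10.3 to 35.8 per microglial cell and 9.08 to 19.5 per endothelial cell. They were 10.5 to 20.2 in the shallow cluster of Müller glia and 8.43 to 11.7 per rod bipolar cell. The 2 clusters of Müller glia differed in depth, with library medians of 7664 to 11219 and of 781.5 to 935.5 UMIs. Summed over cells, the members were 0.104% to 0.116% of UMIs in the deep cluster and 0.991% to 1.60% in the shallow one. The 1.60% was that of the WT female, where the shallow cluster had a mean of 20.2 member UMIs against a median of 7. In amacrine cells the members were 0.0789% to 0.117% of UMIs, and in microglia 0.379% to 1.52%. Relative to rods of the same library, Gnat1 was at 3.02% ± 0.46 (SD, n = 4) of its rod CPM in amacrine cells, Sag at 2.25% ± 0.29 and Cnga1 at 1.49% ± 0.38. Cngb1 left this range in rod bipolar cells, at 10.8% ± 1.2 of its rod level against 1.90% ± 0.69 in amacrine cells.

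**Figure D4:**
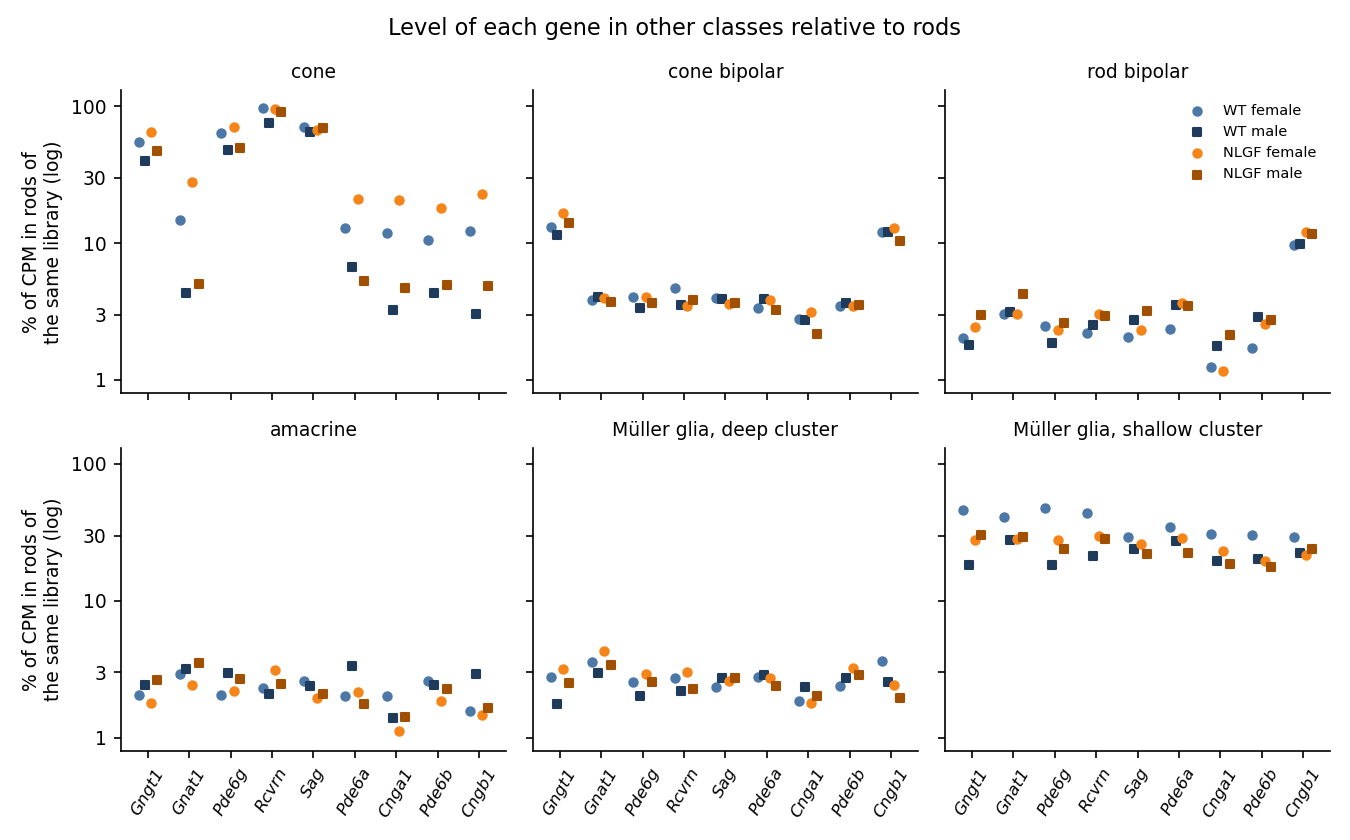
Level of each gene as a percent of its CPM in rods of the same library (log axis), in 6 classes, 1 point per library. Cones lie high for Rcvrn, Sag, Pde6g and Gngt1, cone bipolar cells for Gngt1 and Cngb1, rod bipolar cells for Cngb1, and the shallow cluster of Müller glia for all 9 genes.

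Cones carried some rod genes far above that background. Cones were compared with rod bipolar, cone bipolar and amacrine cells together, and 8 of the 9 genes were higher, where 30.9% of 12093 genes were higher and 36.2% lower. Without TMM 2777 genes were higher and 5509 lower, against 3734 and 4377 with it. Rcvrn was higher by 4.97 ± 0.06 (log2, SE), Sag by 4.64 ± 0.06, Pde6g by 4.39 ± 0.08 and Gngt1 by 2.84 ± 0.07. In cones Rcvrn stood at 89.8% ± 9.8 (SD, n = 4) of its rod CPM, Sag at 68.0% ± 2.3, Pde6g at 57.5% ± 11.0 and Gngt1 at 51.8% ± 10.8. These 4 genes were in most cones, with library medians of 26 to 31 UMIs per cone for Rcvrn, 40 to 54 for Sag, 20 to 29 for Pde6g and 34 to 43 for Gngt1.

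The other 5 genes were uneven. Cnga1 was higher by 2.23 ± 0.26, Pde6a by 1.91 ± 0.21, Pde6b by 1.72 ± 0.23 and Gnat1 by 1.71 ± 0.31, and Cngb1 differed by 0.23 ± 0.27 (edgeR adjusted p = 0.459). The median cone held 1 to 2 UMIs of Gnat1. In the WT female 5 cones held 54.0% of its Gnat1 UMIs in cones, and in the NLGF female 5 cones held 66.9%. Rod markers moved with this: 22 of 206 cones of the WT female and 23 of 144 of the NLGF female held 10 or more UMIs of the 6 rod markers, against 8 of 153 and 7 of 171 in the males. With the other cones alone, Gnat1 was higher by 0.22, Pde6b by 0.39, Cnga1 by 0.58 and Pde6a by 0.78, and Cngb1 was lower by a log2 difference of -1.46. Rcvrn, Sag, Pde6g and Gngt1 stayed at 4.89, 4.61, 4.22 and 2.64. The reference held Cngb1 unevenly, at 139 ± 10.1 CPM (SD, n = 4) in rod bipolar and 153 ± 15.5 in cone bipolar cells. Amacrine cells held Cngb1 at 18.2 to 39.7 CPM over the libraries, and all cones together at 41.4 to 284. Gngt1 was uneven in the reference too, at 1254 ± 105 CPM in cone bipolar and 207 ± 52.7 in amacrine cells. Cngb1 was called higher in 2 of 10 alternative fits, among them the fit without the WT male. There all 9 genes were called higher, and of 12189 genes 3579 were higher and 4227 lower. All 16 other cascade genes were higher in cones, with Guca1a at 6.05, Aipl1, a chaperone of the phosphodiesterase, at 5.48 and Pdc at 4.29. They were read in all cones only, and some were uneven between libraries. Gnb1 ran from 192 to 1020 CPM in cones, against 341 to 501 in amacrine cells. Slc24a1, also a rod marker here, ran from 81.5 to 710 CPM in cones. The cone counterparts were present in the same cells, with the transducin genes Gnat2 at 3336 ± 340 CPM (SD, n = 4), Gngt2 at 6841 ± 577 and Gnb3 at 2536 ± 177. The cone phosphodiesterase genes Pde6c and Pde6h were at 1298 ± 83.9 and 11697 ± 903 CPM, the channel genes Cnga3 and Cngb3 at 105 ± 5.0 and 699 ± 74.1, and cone arrestin (Arr3) at 3027 ± 224.

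Cone bipolar cells, the interneurons that carry cone signals, held Gngt1 above the background of other inner neurons. Against rod bipolar and amacrine cells together, all 9 genes were higher, where 23.1% of 11919 genes were and 24.1% were lower. The 6 rod markers moved with this, at 205 to 244 CPM in cone bipolar cells, 127 to 197 in rod bipolar and 143 to 191 in amacrine cells. Cone bipolar cells were also shallower, with library medians of 7233.5 to 7556.5 UMIs against 8563 to 9216 and 9753 to 11734.5. The part of either in the differences was not tested. Gngt1 was higher by 2.54 ± 0.07 (log2, SE), at 1232 ± 88.8 against 211 ± 38.4 CPM (SD, n = 4). The other 8 differences ran from 0.22 for Gnat1 to 0.77 for Cngb1. The calls of Gnat1 and Pde6a were lost without the WT female and with DESeq2, and that of Gnat1 without the NLGF female. Gngt1 was uneven between clusters of cone bipolar cells. In the 549 cells of the cluster led by Cntn5 it stood at 2446 ± 190 CPM and 15.0 to 18.1 UMIs per cell, in the Neto1 cluster at 959 ± 189 and in the Otor cluster at 844 ± 134. In the Igfn1 cluster it was at 282 ± 95.0 CPM, with 1.34 to 2.66 UMIs per cell, which overlaps amacrine cells. Cngb1 was at 263 ± 48.6 CPM in the Igfn1, 261 ± 13.1 in the Cntn5 and 49.7 ± 3.5 in the Cck cluster. Over all cone bipolar cells Cngb1 was at 153 ± 15.5 CPM. Rod bipolar cells, part of the reference, held it at 139 ± 10.1 CPM and amacrine cells at 24.8 ± 10.0. Of the 16 other cascade genes 13 were higher and 2 lower, with Gucy2e, a guanylate cyclase of photoreceptors, at 2.36 and Rgs9, which speeds transducin's shut-off, at -1.15.

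**Figure D5:**
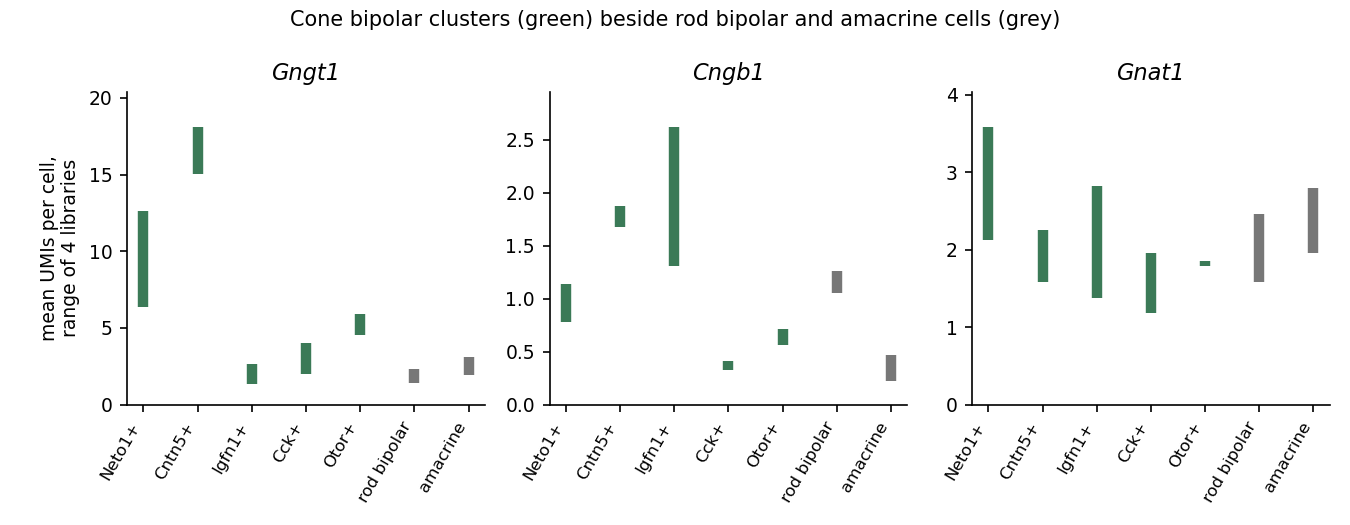
Mean UMIs per cell of Gngt1, Cngb1 and Gnat1 in 5 clusters of cone bipolar cells (green, named by a leading gene) and in rod bipolar and amacrine cells (grey), where each bar runs from the lowest to the highest of the 4 libraries. Gngt1 is highest in the Cntn5 cluster, at 15.0 to 18.1, and Gnat1 runs from 1.18 to 3.59 over all groups.

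Outside rods, no member passed the test between NLGF and WT. In 7 classes with 9 genes each, 0 of 63 tests passed with edgeR's quasi-likelihood test, and 0 with DESeq2. The background was 0% of 9366 genes in cones (529 with an unadjusted p below 0.05), 0.0107% in rod bipolar, 0% of 11696 in cone bipolar (764), 0.0191% in amacrine, 1.08% in Müller glia, 0% of 879 in microglia (82) and 0.0958% in endothelial cells. Leaving out 1 library gave between 2 and 9 calls, in fits where between 0% and 6.41% of all genes were called. Without the NLGF male, 9 were higher in NLGF, among them Gnat1, Pde6a, Pde6b, Cnga1 and Cngb1 in cones, where 0.366% of 9848 genes were called. Without the NLGF female there were 6, without the WT male 5 and without the WT female 2.

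Genes with a profile like the members' were sought over 8 classes in 4 libraries. The 5 with the highest Pearson correlation to the mean member profile were Guca1b (0.98), Rp1 (0.98), Slc24a1 (0.97), Prph2 (0.96) and Pdc (0.96), over 32 points that share libraries and free RNA. Of the members themselves, Cngb1 had the lowest correlation with that mean, at 0.84, and Pde6a the highest, at 0.97.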

How the data were processed

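What the authors deposited were unnormalized UMI counts, 1 matrix per retina. The headers of these files name Cell Ranger 6.1.1, and the processing notes of the submitters give version 3.1.0 with STAR and the mm10 build. The treatment of intronic reads is not stated in these sources. Filtering required 300 genes per barcode and a mitochondrial share of 20% or less. Because Scrublet's own threshold marked no more than 2 cells, the 6% of cells with the highest doublet score in each library were removed, 1998 in all. Cells were clustered with scanpy 1.11.5 (2000 variable genes, 30 components, 20 neighbours, Leiden resolution 1) with the 9 members left out. Clusters were named from marker lists that hold no member.

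UMIs were summed per library and class and tested with edgeR 4.0.16 (TMM, quasi-likelihood, Benjamini-Hochberg over all genes, threshold 0.05) in R 4.3.3, with DESeq2 1.42.0 as an alternative. Comparisons within libraries had library as a block. Classes needed at least 10 cells in every library. Named genes were all members, up to 4 of the 16 other cascade genes with the smallest p in a comparison, 8 cone counterparts in cones, and the 5 genes most like the mean member profile. Gene spans came from GENCODE M21 (GRCm38). The members and lists were chosen with earlier results of these data known. The clusters left out and the depth limit of 3000 UMIs between the clusters of Müller glia were set after seeing the data. Tested on simulated data, the NLGF comparison in rods (12387 genes) recovered 41.8%, 83.6% and 98.5% of 1.5-fold, 2-fold and 4-fold changes. Of its 158 calls, 9 were false. The members' log2 differences there, from -0.34 to -0.08, were smaller than a 1.5-fold change, so these rates do not cover them.

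The sexes carry the same label in both genotypes, and 1 animal stands for each, so sex entered only as an alternative block.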

Additional observations from a re-analysis of the deposited data

How the results depend on the processing

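With 2 animals per genotype, single retinas decided several counts. For NLGF against WT in rods, leaving out 1 library gave between 0 and 7 members called, the fit without a filter on low counts gave 3, and rods over 5% mitochondrial UMIs gave 1. Of all genes, the fit without the filter called 0.527% of 20289, and that of rods over 5% called 0.173% of 10382. With sex as a replicate block, 0 members were called and 156 genes against 5. In rods under 2% mitochondrial UMIs the differences turned to 0.0226 for Gnat1, 0.20 for Gngt1, 0.0222 for Pde6g, 0.00929 for Cnga1 and 0.0971 for Rcvrn. In the other classes, leaving out 1 library gave between 2 and 9 calls, no filter 4, and doublets kept 2. The interactions of genotype gave between 0 and 3 calls with mitochondrial share and between 0 and 6 with depth when 1 library was left out. The mitochondrial interaction of Pde6a turned to 0.0378 without the NLGF female and 0.0823 without the WT female, in a range from -0.132.

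By depth, without TMM Pde6b turned to -0.19, and within the lowest mitochondrial quartile Pde6a, Pde6b and Cngb1 turned to -0.0934, -0.0360 and -0.18. By mitochondrial share, the count fell to 0 within the middle depth quartiles and to 0 within the shallowest quartile. Without TMM Pde6b turned to -0.0543 and Sag to -0.19. Sag was at -0.00167 in the middle depth quartiles and -0.0508 in the shallowest quartile, where Pde6a was at -0.0960 and Cnga1 at -0.0292. In cones, Cngb1 turned to -0.0403 with DESeq2 and to -1.46 in cones with few rod-marker UMIs. Leaving out 1 library, Cngb1 in cones ranged from -0.28 to 0.66. The limits of 2% and 5% mitochondrial UMIs for genotype, the depth comparison within mitochondrial quartiles, the mitochondrial comparison within the shallowest or deepest quartile and the split by rod-marker UMIs in cones were chosen after seeing the data. The cause was not tested for any of these.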
